A study of Homo sapiens with 6 samples.

Results

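The Kruppel-like factors (KLF) described here are 10 transcription factor genes, KLF2, KLF3, KLF4, KLF5, KLF6, KLF7, KLF9, KLF10, KLF11 and KLF13, picked by name from the 14803 genes of the count table. All 10 were found and all 10 passed the filter on low counts. RNA was sequenced from MCF-12A cells, an immortalised, non-tumorigenic human breast epithelial line, after 24 h with OA (octanoic acid, a saturated fatty acid of medium chain length) or after 24 h with PBS (phosphate-buffered saline) as vehicle. Each group had 3 libraries, and both groups are the same cell line in the same growth medium. The line stands for cultured breast epithelium alone, without the other cells of the breast.

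KLF proteins bind GC-rich and CACCC-type DNA through zinc fingers at their C-terminus, which are nearly alike across the family, while their N-terminal parts differ and recruit different partners. On that basis the family falls into groups. KLF2, KLF4, KLF5, KLF6 and KLF7 are mostly known as activators that recruit acetyltransferases, KLF3 belongs to a group of repressors that bind the corepressor CtBP, and KLF9, KLF10, KLF11 and KLF13 bind the corepressor SIN3A. In epithelia KLF5 is known for proliferation of basal cells and KLF4 for their exit from the cell cycle and differentiation, and several KLF genes are quickly induced by serum, stress, steroid hormones or transforming growth factor beta.

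Library totals ran from 47508208 to 49585010 counts in OA and from 43049972 to 59935521 counts in vehicle. Most of the transcriptome differed between the groups, with 6409 genes higher in OA and 6084 lower of 14785 tested by edgeR's quasi-likelihood test at a false discovery rate of 0.01. The split depends on the scaling, and was 8223 higher and 4341 lower when libraries were scaled by their totals alone, and 7857 and 4687 with upper quartile scaling. Basal keratin genes were abundant in these cells, with KRT5 at 1061 TMM-scaled CPM (counts relative to the scaled library total) in OA and 3918 CPM in vehicle. The luminal keratin genes differed in level. KRT19 was near 0 in both groups (0.192 CPM in OA and 0.0981 CPM in vehicle). KRT8 had 238.5 CPM in OA and 279 CPM in vehicle, and KRT18 had 264 CPM in OA and 362 CPM in vehicle. The labels do not say whether replicates were separate cultures, and the p-values here therefore refer to the spread between libraries only, which may be technical. In bulk RNA, fewer cells that express a gene and less of its RNA per cell cannot be told apart.

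All 10 KLF genes were higher in OA. The background for this count is wide, since 43.3% of all genes tested were called higher, and 41.1% lower. In all 10 genes the 3 OA libraries lay above the 3 vehicle libraries, as in 45.6% of all genes. The median log2 fold change of the 10 was 0.71, against 0.03 over all genes tested, and the members ran from KLF10 at 0.23 to KLF11 at 1.78. Summed over the 10 genes per kilobase of gene length, their level was 294, 285 and 295 RPKM (CPM per kilobase) in the OA libraries and 189.0, 189.9 and 190.5 RPKM in the vehicle libraries. The groups did not overlap in this sum, which was 1.54-fold higher in OA.

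**Figure D1:**
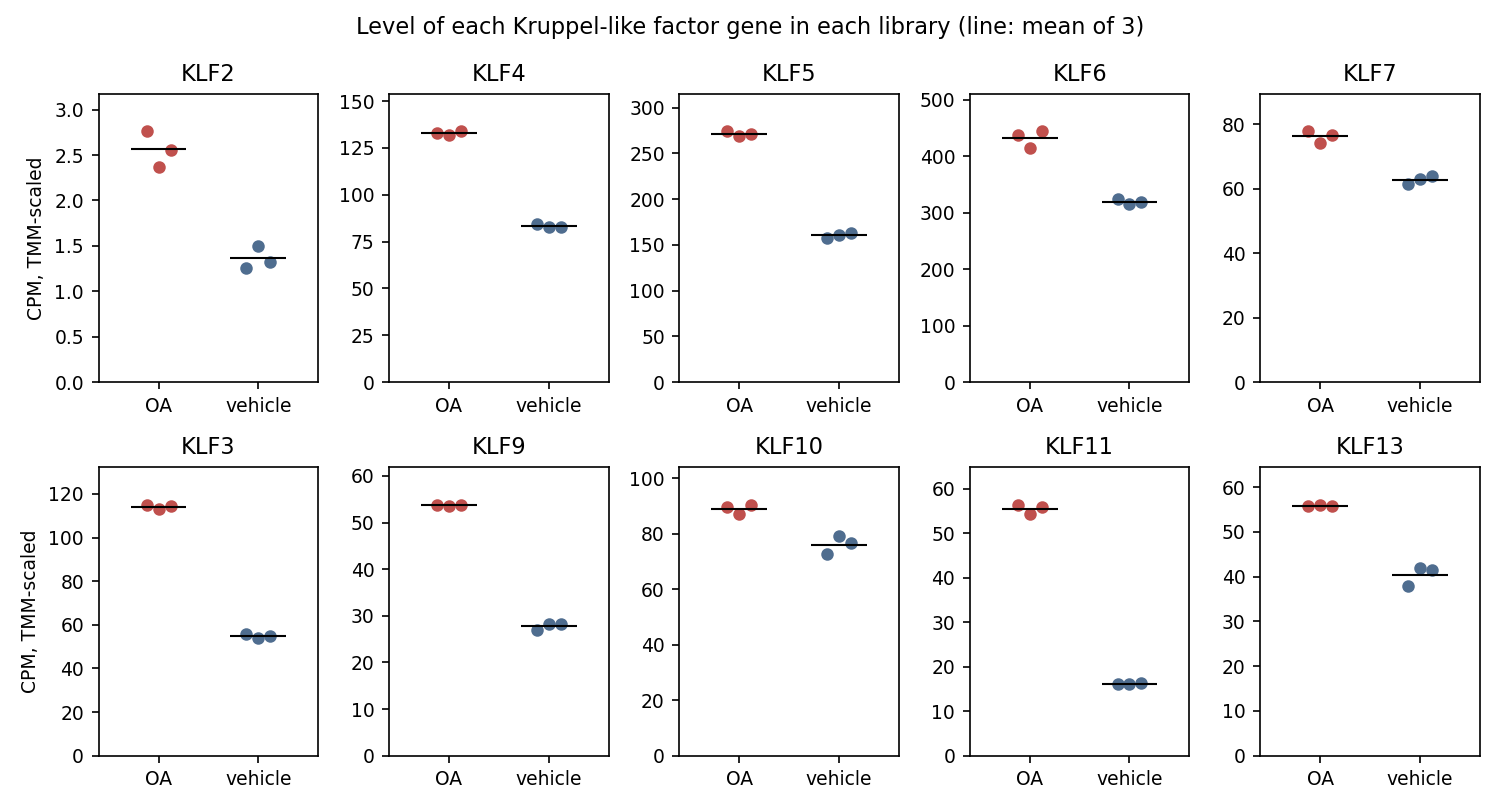
Each panel plots 1 KLF gene, with its level in TMM-scaled CPM on a linear axis from 0, for the 3 OA libraries on the left and the 3 vehicle libraries on the right; points are libraries and the line is the mean of 3. In every panel the OA points lie above the vehicle points, with the largest fold in KLF11 (55.5 CPM in OA and 16.2 CPM in vehicle) and the smallest fold in KLF10 (89.0 CPM in OA and 76.1 CPM in vehicle).

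Because the members moved in the same direction, the DNA upstream of their start sites is shown for 4 of them, 250 bases each, 5′ to 3′ on the gene's own strand. The sequences are RefSeq's, on GRCh38.p14. KLF11 is shown for the largest change, KLF2 for a match to the MEF2 motif, KLF4 for GC boxes and KLF9 because it holds neither a GC box nor a CACCC box. Capitals mark GC boxes (GGGCGG, either strand), CACCC boxes and the cAMP response element (CRE, TGACGTCA) in KLF11, the MEF2 motif in KLF2 and GC boxes in KLF4, and nothing is capitalised in KLF9. The windows are chr2:10043971-10044220 (plus strand) for KLF11, chr19:16324576-16324825 (plus strand) for KLF2, chr9:107489770-107490019 (minus strand) for KLF4 and chr9:70414658-70414907 (minus strand) for KLF9.
KLF11: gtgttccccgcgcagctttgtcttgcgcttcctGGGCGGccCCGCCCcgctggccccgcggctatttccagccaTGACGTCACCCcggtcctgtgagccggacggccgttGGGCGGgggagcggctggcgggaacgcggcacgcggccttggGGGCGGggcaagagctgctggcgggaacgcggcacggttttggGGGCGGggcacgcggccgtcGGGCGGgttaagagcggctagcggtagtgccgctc
KLF2: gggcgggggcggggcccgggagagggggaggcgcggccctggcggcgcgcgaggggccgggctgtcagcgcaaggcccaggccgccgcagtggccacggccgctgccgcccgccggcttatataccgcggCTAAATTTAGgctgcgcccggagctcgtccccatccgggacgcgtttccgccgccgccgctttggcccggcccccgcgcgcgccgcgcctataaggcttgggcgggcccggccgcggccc
KLF4: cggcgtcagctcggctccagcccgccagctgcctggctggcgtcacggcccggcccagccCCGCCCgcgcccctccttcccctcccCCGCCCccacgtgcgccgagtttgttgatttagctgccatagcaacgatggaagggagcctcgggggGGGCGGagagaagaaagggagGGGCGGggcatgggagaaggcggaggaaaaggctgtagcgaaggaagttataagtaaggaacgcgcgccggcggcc
KLF9: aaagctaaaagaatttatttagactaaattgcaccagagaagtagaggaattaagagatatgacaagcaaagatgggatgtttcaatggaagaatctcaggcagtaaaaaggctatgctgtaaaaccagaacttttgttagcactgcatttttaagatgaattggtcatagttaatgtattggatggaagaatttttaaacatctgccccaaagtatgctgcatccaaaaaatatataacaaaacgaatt

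The stretch upstream of KLF11 held 6 GC boxes, 1 CACCC box and 1 CRE, and the last pair run into each other and share bases. KLF11 has another start site, at 10043829, whose stretch is not shown and held 2 GC boxes but neither a CACCC box nor a CRE. The stretch upstream of KLF4 held 4 GC boxes. In windows that run from 250 bases before to 50 after a start site, 8 of the 10 members had an entry, with 13 windows in all, and KLF3 and KLF10 had none. A GC box was present in at least 1 window of 7 of these 8 genes and in 8 of the 13 windows, against 45% of 35116 windows of all genes. A CACCC box was present in 4 of the 8 genes and 7 of the 13 windows, against 59.9% of all windows. A CCAAT box (CCAAT) was present in 5 of the 8 genes and 6 of the 13 windows, against 34.6% of all windows. The CRE was found in the KLF11 window shown and in 1.85% of all windows, and the MEF2 motif in KLF2 and in 2.99% of all windows. A CArG box (CC, then A or T bases, then GG) was found in 1 KLF7 window and in 1.29% of all windows. The KLF9 window was 32.7% G and C and the KLF2 window 80.7%, against a median of 58.7% over all windows. Member windows with a GC box ran from 69.0% (KLF4) to 80.7% (KLF2) G and C. Motifs were searched on both strands, a match is a description of letters only, and genes with several windows had more chances of a match.

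The activator group is described next, from the most to the least abundant per length. KLF6 (chromosome 10, 3775996 to 3785281, minus strand), a gene known for rapid induction after injury, had 437, 415 and 445 CPM in the OA libraries and 324, 316 and 319 CPM in the vehicle libraries. The groups did not overlap, and KLF6 was 1.35-fold higher in OA (log2 fold change 0.44, SE 0.030). It was the most abundant of the 10 in both groups, both in CPM and per length.

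KLF5 (chromosome 13, 73054976 to 73077542, plus strand), which promotes proliferation of basal epithelial cells, had 274, 269 and 271 CPM in the OA libraries and 158, 161 and 163 CPM in the vehicle libraries. KLF4 (chromosome 9, 107484852 to 107489720, minus strand), needed for the terminal differentiation of stratified epithelia, had 133, 132 and 134 CPM in the OA libraries and 84.6, 82.9 and 82.6 CPM in the vehicle libraries. Both genes thus rose without overlap between the groups, with log2 fold changes of 0.76 in KLF5 (SE 0.028) and of 0.67 in KLF4 (SE 0.030). Their balance, which does not depend on library scaling, moved little. The per-length ratio of KLF4 to KLF5 was 0.607, 0.616 and 0.619 in the OA libraries and 0.673, 0.644 and 0.634 in the vehicle libraries. The OA libraries were all lower in this ratio, whose mean in OA was 0.945 of that in vehicle. With 3 libraries against 3, an exact two-sided permutation test cannot go below p = 0.10.

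KLF7 (chromosome 2, 207074138 to 207167246, minus strand), known for its part in the development of sensory neurons, had 77.8, 74.3 and 76.8 CPM in the OA libraries and 61.5, 63.0 and 63.9 CPM in the vehicle libraries. Its rise was small but larger than the spread (log2 fold change 0.28, SE 0.034). KLF2 (chromosome 19, 16324826 to 16328662, plus strand), best known from endothelium and quiescent T cells, was the scarcest member, with 150, 130 and 133 counts in the OA libraries and 68, 68 and 52 counts in the vehicle libraries. These counts are 2.76, 2.37 and 2.55 CPM in OA and 1.26, 1.50 and 1.33 CPM in vehicle, so the groups did not overlap. KLF2 was 1.89-fold higher in OA, with the largest SE of the 10 (log2 fold change 0.91, SE 0.15, edgeR adjusted p = 9.49e-06). Of 5 endothelial markers 3 were analysed, and their summed level was 5.34, 4.94 and 4.63 CPM in the OA libraries and 6.00, 6.13 and 7.09 CPM in the vehicle libraries. PECAM1 fell (-0.87) and KDR, at 1.49 CPM in OA and 0.481 CPM in vehicle, rose (1.69).

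KLF3 (chromosome 4, 38664169 to 38701508, plus strand), the CtBP-binding repressor among the 10 and a brake on adipocyte differentiation in mice, had 115, 113 and 114 CPM in the OA libraries and 55.7, 54.2 and 55.0 CPM in the vehicle libraries. The libraries of each group were close together, and KLF3 was 2.08-fold higher in OA (log2 fold change 1.05, SE 0.032). It was the second largest change of the 10.

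In the SIN3A-binding group the changes were the most unequal, from the largest to the smallest of the 10. KLF11 (chromosome 2, 10043555 to 10054836, plus strand), a glucose-regulated and transforming growth factor beta-inducible repressor, had 56.4, 54.3 and 55.9 CPM in the OA libraries and 16.0, 16.0 and 16.4 CPM in the vehicle libraries. It was 3.44-fold higher in OA (log2 fold change 1.78, SE 0.043, edgeR adjusted p = 1.15e-18). KLF10 (chromosome 8, 102648777 to 102655902, minus strand), its closest relative and a target of transforming growth factor beta, had 89.6, 87.0 and 90.5 CPM in the OA libraries and 72.6, 79.1 and 76.7 CPM in the vehicle libraries. The groups did not overlap, but KLF10 was 1.17-fold higher only (log2 fold change 0.23, SE 0.036, edgeR adjusted p = 6.77e-06).

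KLF9 (chromosome 9, 70384597 to 70414657, minus strand), induced by glucocorticoids and thyroid hormone, had 53.8, 53.6 and 53.8 CPM in the OA libraries and 27.1, 28.3 and 28.3 CPM in the vehicle libraries, a log2 fold change of 0.95 (SE 0.039). KLF13 (chromosome 15, 31326855 to 31435665, plus strand), known for its part in T cell cytokine expression, had 55.9, 56.1 and 55.7 CPM in the OA libraries and 38.0, 42.0 and 41.5 CPM in the vehicle libraries. Its log2 fold change was 0.47 (SE 0.041). In KLF13 and KLF10 the vehicle libraries were spread more widely than the OA libraries, with SDs of 2.19 and 3.3 CPM in vehicle against 0.200 and 1.80 CPM in OA.

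In the order of change KLF11 led, followed by KLF3, KLF9, KLF2, KLF5, KLF4, KLF13, KLF6, KLF7 and KLF10. For 3 neighbouring pairs, KLF9 and KLF2, KLF2 and KLF5, and KLF13 and KLF6, the ratio of the 2 genes within a library overlapped between OA and vehicle, so their changes did not differ beyond the spread. For the other 6 pairs the ratios did not overlap.

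In the order of level, given here as mean RPKM with the deposited lengths, 8 of the 10 genes held the same places in both groups, and KLF11 and KLF7 changed places. KLF6 came first (92.7 in OA and 68.6 in vehicle), then KLF5 (72.4 in OA and 42.9 in vehicle), KLF4 (44.5 in OA and 27.9 in vehicle), KLF10 (24.8 in OA and 21.2 in vehicle) and KLF3 (20.3 in OA and 9.79 in vehicle). Below them, the order in OA was KLF11 (12.9), KLF9 (10.3), KLF7 (8.59), KLF13 (3.92) and KLF2 (0.916). In vehicle the order was KLF7 (7.07), KLF9 (5.35), KLF11 (3.76), KLF13 (2.84) and KLF2 (0.487). No 2 neighbours in either order overlapped over the 3 libraries. The place of KLF13 rests on its length, since the deposited 14246 bases count its exons on chromosome 15 (7121 bases) and again on an alternate contig. With the chromosome 15 length alone it stood at 7.85 RPKM in OA and 5.68 RPKM in vehicle, and this vehicle mean is above that of KLF9. The vehicle libraries of the 2 genes then overlap (5.33, 5.90 and 5.82 RPKM in KLF13, and 5.20, 5.43 and 5.43 RPKM in KLF9). With that length KLF13, KLF9 and KLF11 have other places in vehicle than those given above.

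As shares of the summed per-length level, which do not depend on library scaling, the transcripts shifted toward KLF11, KLF5 and KLF3 and away from KLF6 and KLF10. KLF11 made up 4.44% ± 0.028 in OA and 1.98% ± 0.021 in vehicle (SD, n = 3 each). KLF6 made up 31.8% ± 0.58 in OA and 36.1% ± 0.60 in vehicle, although its own level rose. KLF10 made up 8.50% ± 0.031 in OA and 11.2% ± 0.45 in vehicle, and KLF5 24.9% ± 0.29 in OA and 22.6% ± 0.31 in vehicle. KLF3 made up 6.98% ± 0.086 in OA and 5.16% ± 0.085 in vehicle. The most abundant genes, KLF6, KLF5 and KLF4, together held 71.9% ± 0.15 in OA and 73.4% ± 0.56 in vehicle. No test was run on the shares, since an exact permutation test of 3 libraries against 3 cannot go below p = 0.10. For KLF11, KLF6, KLF10, KLF5 and KLF3 the difference was several times the SD of either group. The same held for KLF9, at 3.54% ± 0.056 in OA and 2.82% ± 0.061 in vehicle. It also held for KLF7, at 2.95% ± 0.028 in OA and 3.72% ± 0.058 in vehicle.

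**Figure D2:**
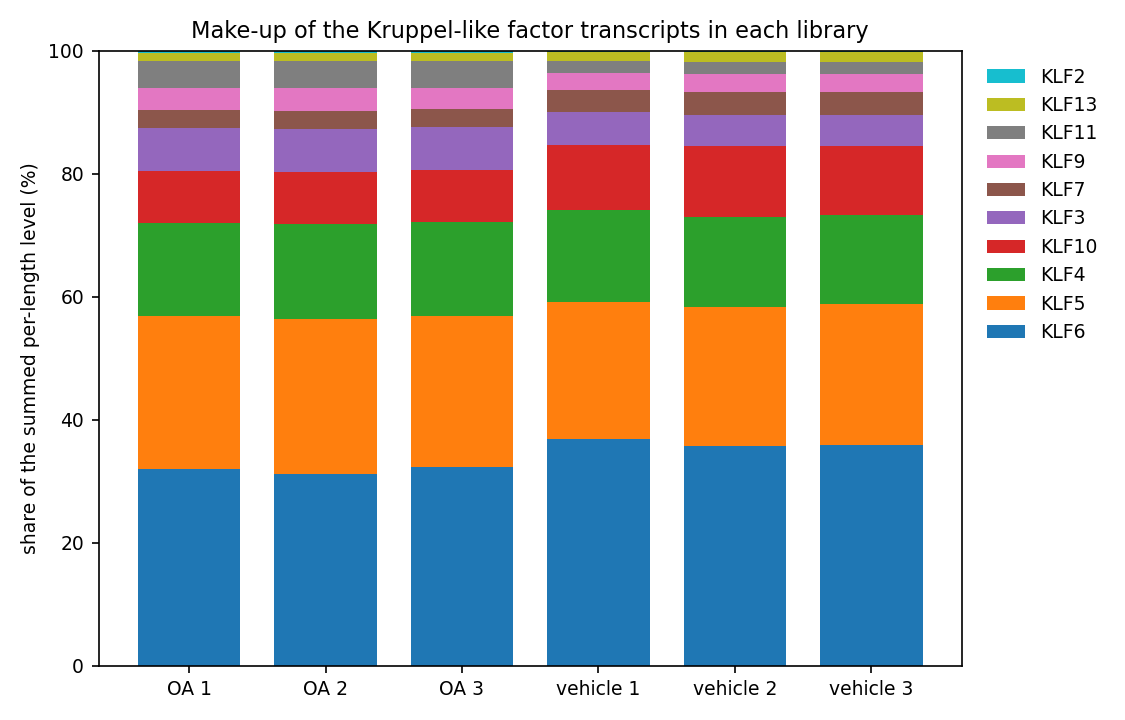
Stacked bars give, for each of the 3 OA libraries and then each of the 3 vehicle libraries, the percent of the summed per-length level that each KLF gene holds, from 0 to 100. The KLF11 band is wider in the OA bars (mean 4.44%, against 1.98% in vehicle) and the KLF6 band narrower (mean 31.8%, against 36.1% in vehicle).

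Of 17 other KLF and SP family genes, 11 were analysed here, and 6 were higher and 4 lower. Over all genes tested 43.3% were higher and 41.1% lower. The median log2 fold change of the 11 was 0.37, against 0.03 over all genes tested. Counting the whole KLF family, 13 of 15 genes tested were higher and 2 lower. The CtBP-binding group was complete in its direction, as KLF8 (log2 fold change 0.86, SE 0.073; 12.6 CPM in OA and 6.92 CPM in vehicle) and KLF12 (0.37, SE 0.047; 51.3 CPM in OA and 39.7 CPM in vehicle) rose with KLF3. The SIN3A-binding group was not, as KLF16 fell (-0.50, SE 0.043), to 67.2 CPM in OA, against 94.9 CPM in vehicle. KLF15, a glucocorticoid-induced metabolic regulator, rose (1.11, SE 0.16; 2.20 CPM in OA and 1.02 CPM in vehicle), and KLF17 fell (-1.57, SE 0.24; 0.349 CPM in OA and 1.04 CPM in vehicle).

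The SP genes, whose proteins share the KLF zinc fingers and bind GC boxes, were divided. Of 6 tested, 3 were higher and 2 lower, beside 43.3% higher and 41.1% lower over all genes tested. SP8 had 7.11, 6.35 and 7.18 CPM in the OA libraries and 1.63, 1.48 and 1.17 CPM in the vehicle libraries (log2 fold change 2.25, SE 0.12). SP6, which acts in the development of teeth and skin appendages, rose too (1.47, SE 0.089), as did SP4 (0.42). The widely expressed SP1 fell (-0.43, SE 0.031), to 94.4 CPM in OA, against 127 CPM in vehicle, and SP2 fell as well (-0.61). SP3 had 109 CPM in OA and 114 CPM in vehicle and was not called (-0.07, edgeR adjusted p = 0.067). Its direction turned with upper quartile scaling (0.16) and with library totals (0.22). KLF8, KLF12, KLF15, KLF16, KLF17, SP2 and SP4 were named after their values were seen.

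**Figure D3:**
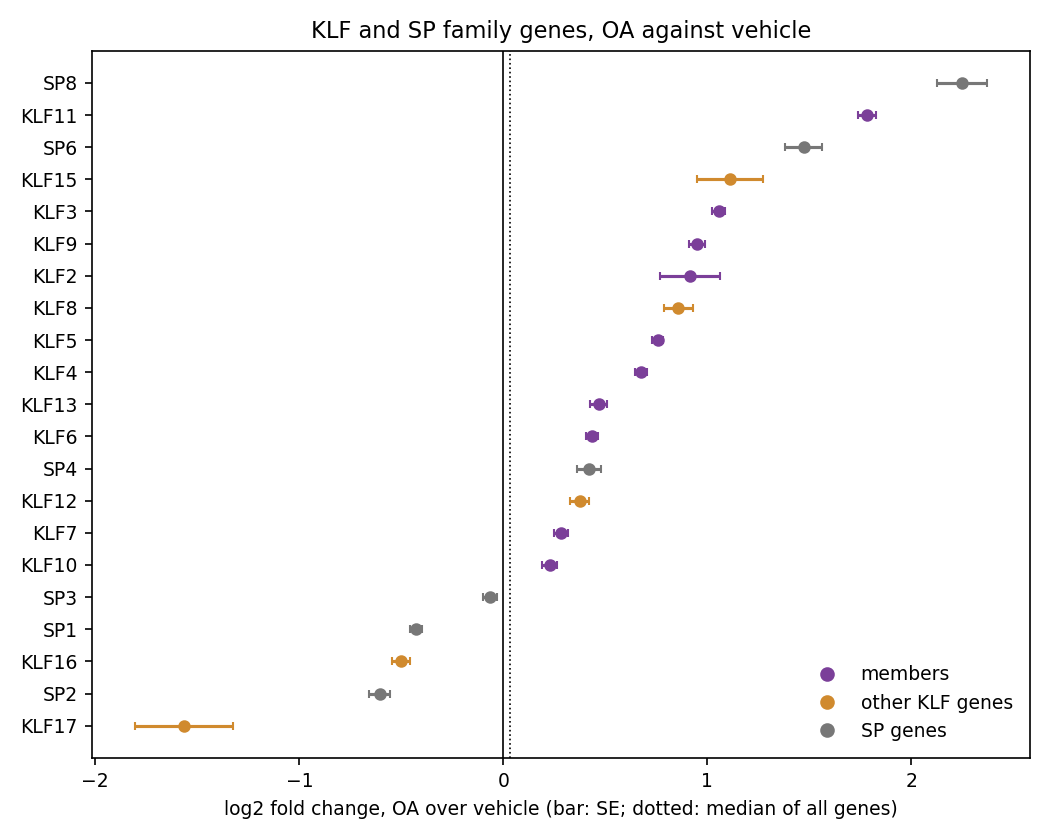
Points give the log2 fold change of each KLF and SP gene, OA over vehicle, on the x axis with its SE as a bar; the 10 members, the other KLF genes and the SP genes have their own colours, and the dotted line is the median of all genes tested (0.03). The 10 members run from 0.23 to 1.78 and are interleaved with KLF8, KLF12, KLF15, SP4 and SP6. SP8 (2.25) lies above all members, while SP3 (-0.07), KLF16, KLF17, SP1 and SP2 lie below 0.

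KLF proteins act through coactivators and corepressors. Of 10 cofactor genes 6 were lower and 3 higher, and the list median was -0.40 on the log2 scale, beside 41.1% lower, 43.3% higher and a median of 0.03 over all genes tested. CTBP1, the corepressor of KLF3, had 52.1, 54.0 and 58.1 CPM in the OA libraries and 100.2, 100.2 and 96.3 CPM in the vehicle libraries, and its relative CTBP2 had means of 138 CPM in OA and 183 CPM in vehicle. SIN3A, the scaffold that KLF9, KLF10, KLF11 and KLF13 bind, fell (-0.70, SE 0.032), to 90.4 CPM in OA, against 147 CPM in vehicle, and the histone deacetylase genes HDAC1 (-0.53), HDAC2 (-0.52) and HDAC3 (-0.38) fell too. The genes that rose were the acetyltransferase genes KAT2B (1.54, SE 0.066) and CREBBP (0.33) and the second scaffold gene SIN3B (0.21). These 9 directions were the same under the 4 scalings tried. CREBBP, SIN3B and the HDAC genes were named after their values were seen.

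Among 9 ubiquitin ligase genes known to direct the breakdown of KLF proteins or related factors, 5 were higher and 2 lower (8 and 1 with library totals). Over all 14785 genes tested 43.3% were higher and 41.1% lower, and with library totals 8223 were higher and 4341 lower. FBXO32, a stress- and FOXO-induced ligase gene best known from muscle, had 47.0, 45.7 and 45.8 CPM in the OA libraries and 9.02, 9.52 and 9.87 CPM in the vehicle libraries. SMURF1 rose (0.70, SE 0.033) while its relative SMURF2 fell (-0.67, SE 0.037). WWP1, which targets KLF2 and KLF5 and was named with its values in view, was called lower (-0.17, SE 0.032), but not with upper quartile scaling (0.06), and was called higher with library totals (0.11, edgeR adjusted p = 0.0033). ITCH, the most abundant of the list, had 203 CPM in OA and 192 CPM in vehicle and was not called (0.08, edgeR adjusted p = 0.017), although it was with upper quartile scaling, library totals, the 1 CPM filter and without Vehicle replicate 3. Protein levels of the KLF factors were not analysed here.

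Upstream regulators known to control KLF genes moved both ways, with 7 of 15 higher and 7 lower, near the shares over all genes tested (43.3% higher and 41.1% lower). MEF2 factors, which drive KLF2 and KLF4 downstream of the kinase ERK5 in endothelium, were divided: MEF2A had 111, 109.6 and 109 CPM in the OA libraries and 47.6, 49.5 and 49.2 CPM in the vehicle libraries, and MEF2C rose at a low level (2.91, SE 0.24; 2.18 CPM in OA and 0.281 CPM in vehicle), while MEF2D fell (-0.32), a call lost with library totals (-0.04). The ERK5 gene MAPK7 fell (-0.52), while the gene of its kinase, MAP2K5, rose (0.69). On the transforming growth factor beta route that induces KLF10 and KLF11, SMAD3 fell most (-1.62, SE 0.039), to 29.8, 28.1 and 30.6 CPM in the OA libraries, against 93.4, 89.0 and 89.6 CPM in the vehicle libraries. The receptor gene TGFBR2 (-0.58) and SMAD4 (-0.46) fell too, while SMAD2 rose (0.25, SE 0.033). The other receptor gene, TGFBR1, was not called (-0.04, edgeR adjusted p = 0.19). Its value was 0.18 with upper quartile scaling and 0.24 with library totals. The ligand gene TGFB1, placed in the target list below, rose (0.96). FOXO3 (0.64, SE 0.029) and the glucocorticoid receptor gene NR3C1 (0.47), which acts on KLF9, rose. MAPK7, MAP2K5, MEF2C, MEF2D, SMAD2, SMAD4, TGFBR1 and NR3C1 were chosen with their values in view.

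Of 22 genes described elsewhere as KLF targets 19 were tested, 11 higher and 6 lower, and the list median was 0.17 on the log2 scale. Over all genes tested 43.3% were higher and 41.1% lower, with a median of 0.03. These genes answer to many other factors. THBD, the thrombomodulin gene, is a KLF2 and KLF4 target in endothelium. It had 237, 257 and 231 CPM in the OA libraries and 71.9, 70.5 and 71.7 CPM in the vehicle libraries. CDKN1A, a cell cycle inhibitor gene and a target of KLF4 and KLF6, rose (1.07, SE 0.031). Its mean was 1249 CPM in OA and 596 CPM in vehicle. The cyclin genes CCND1 (-1.19, SE 0.028) and CCNB1 (-4.08, SE 0.080), described as KLF4 targets, fell. CCNB1 had 18.8, 21.5 and 28.3 CPM in the OA libraries and 372, 387 and 396 CPM in the vehicle libraries. TGFB1 (0.96), a KLF6 target, MAOA (0.93), a KLF11 target, and CDH1 (0.76), a KLF4 target, rose. FGFBP1 (-1.50), a KLF5 target, and PLAU (-1.19), a KLF6 target, fell. These last 5 genes were named after their values were seen. The direction in which a KLF factor acts on each target is not given here, and a target can answer to several KLF factors. Whether the list followed the KLF genes was not tested.

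The immediate early genes, which share a fast induction by serum and stress with several KLF genes, were mostly higher 24 h after the start of exposure, with 12 of 15 higher and 3 lower and a list median of 0.61 on the log2 scale, beside 43.3% higher, 41.1% lower and a median of 0.03 over all genes tested. ATF3, a stress-induced factor, had 107, 102 and 98.8 CPM in the OA libraries and 10.6, 11 and 11.4 CPM in the vehicle libraries. EGR1, whose zinc fingers also bind GC-rich DNA, rose 5.55-fold (log2 fold change 2.47, SE 0.034), and the phosphatase gene DUSP1 3.83-fold. The 3 that fell were MYC (-0.72) and the matrix protein genes CYR61 (-2.06) and CTGF (-0.75), named after their values were seen. All 15 directions were the same under the 4 scalings.

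**Figure D4:**
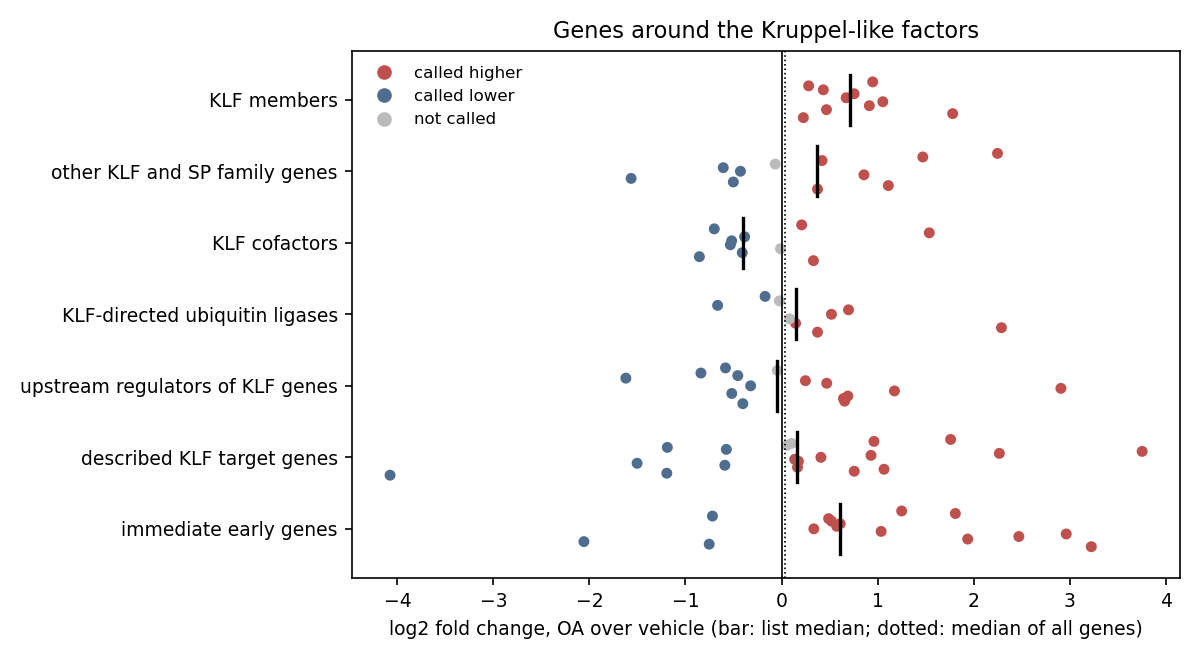
Points give the log2 fold change, OA over vehicle, of each tested gene in 7 lists, coloured by whether it was called higher, lower or not at a false discovery rate of 0.01; black bars are list medians and the dotted line is the median of all genes tested (0.03). The KLF members (median 0.71) and the immediate early genes (0.61) lie mostly to the right, the KLF cofactors (-0.40) mostly to the left, and the upstream regulators (-0.04) on both sides.

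The genes whose profile over the 6 libraries was most like that of KLF11, as log2 CPM less the vehicle mean among 10964 genes of at least 5 CPM, were CLSTN3, CD55 and VWDE. Their root mean square differences from KLF11 were 0.028, 0.036 and 0.040 on the log2 scale. CD55, which encodes a complement inhibitor, had 229 CPM in OA and 64.9 CPM in vehicle. Over 6 libraries that fall into 2 groups this likeness is mostly a matter of a similar fold change.

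Transcripts typical of hepatocytes differed between libraries, and their part in the KLF results was not tested beyond the following values. Of 12 hepatocyte markers 10 were in the table and 8 were tested, all higher in OA by edgeR, but 3 with DESeq2 or limma-voom and 1 with the 1 CPM filter. The summed level of the 10 was 2.12, 18.2 and 74.4 CPM in OA replicates 1, 2 and 3 and 0.667, 4.32 and 2.75 CPM in the vehicle libraries. Without OA replicate 3 all 10 KLF genes were called higher, with log2 fold changes from 0.20 to 1.77. In that fit 6290 of all 14786 genes tested were called higher. Basal epithelial markers fell in 4 of 6 genes, KRT5 (-1.89), KRT14 (-2.22), ITGA6 (-1.56) and TP63 (-1.46), beside 41.1% lower over all genes tested. KRT17 rose (0.60), and the part of the basal markers in the KLF results was not tested. TP63, KRT17 and KRT19 were named with their values in view.

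Reads of genes that share exon bases on opposite strands could not be told apart, since no source used here gives the strand setting of the counting. By GENCODE v44, KLF3 shares 286 exon bases with KLF3-AS1, KLF11 416 and KLF4 277 with unnamed long noncoding RNA genes, and KLF7 67 with MYOSLID. MYOSLID had 21.6 CPM in OA and 19.3 CPM in vehicle and was not called (0.16, edgeR adjusted p = 0.016). The antisense partners of KLF3, KLF4 and KLF11 were not analysed here.

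The KLF changes moved with the scaling, and so did the median of all genes. Over all genes the median log2 fold change was 0.03 with TMM, 0.02 with DESeq2-type size factors, 0.26 with upper quartile scaling and 0.32 with library totals, and the members ran from 0.23 to 1.78, 0.21 to 1.76, 0.45 to 2.01 and 0.51 to 2.07. All 10 members were above the median of all genes with TMM, and a median has as many genes above it as below it. A change of scaling shifts every gene by nearly the same amount, so this place could not change between scalings.

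**Figure D5:**
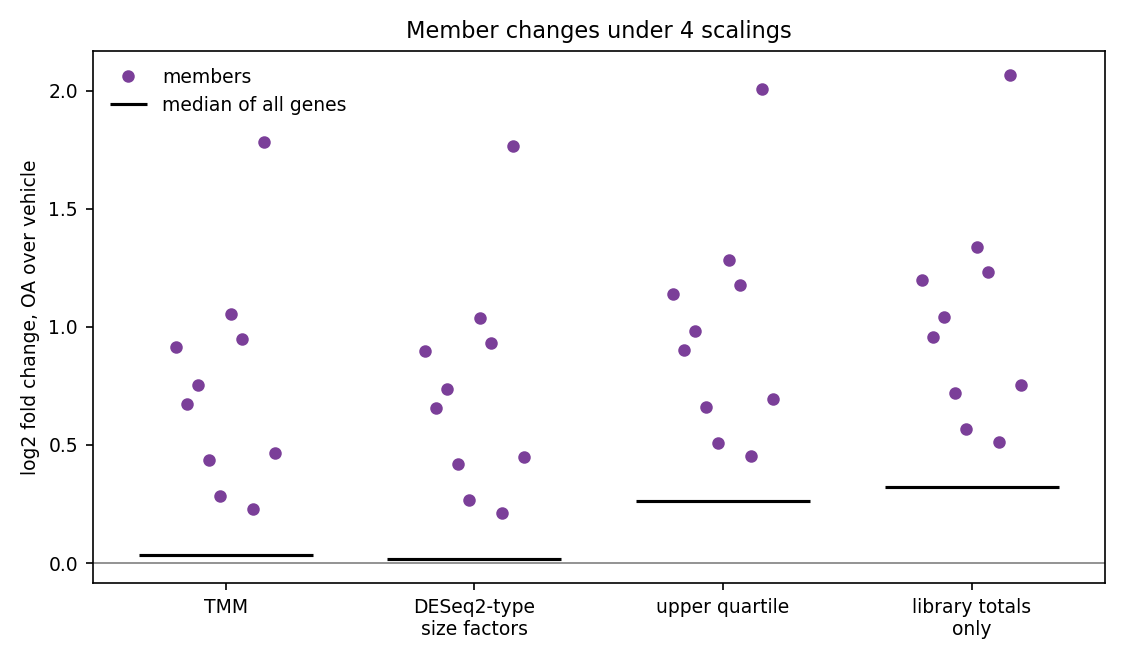
Points give the log2 fold change of the 10 KLF genes, OA over vehicle, under 4 ways of scaling the libraries, and the black lines the median of all genes tested under the same scaling. The lowest point and the line move from 0.23 and 0.03 with TMM to 0.51 and 0.32 with library totals. A change of scaling shifts all genes by nearly the same amount.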

How the data were processed

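RNA from MCF-12A cells (3 OA and 3 vehicle libraries, grouped by the sample labels) was sequenced by the authors. Per the labels and the study's methods, reads were aligned to hg38 with STAR 2.5, poorly or multiply mapped reads were dropped, and the rest were counted per gene (featureCounts 1.5.1 of Subread). FastQC, MultiQC 0.11.5 and edgeR 3.30.3 are also in the submitters' processing notes. Sources disagree on read length and layout (single or paired), and give neither the annotation release nor the strand setting. The authors deposited raw counts for 14803 genes, with no normalization, beside other columns that hold exon positions, strand and gene length. The lowest total over the 6 libraries was 14, and 183 genes have exons on alternate contigs as well. With multi-mapped reads excluded, counts of KLF13, 1 of these genes, could be lowered.

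The count analysis used edgeR 4.0.16 in R 4.3.3, with TMM scaling, filterByExpr (18 genes removed, 14785 tested), and the two-sided quasi-likelihood test without covariates, with Benjamini-Hochberg adjustment over all genes tested and a false discovery rate of 0.01. The study's likelihood ratio test was run as an alternative. SEs of log2 fold changes were taken as their absolute value over the square root of F (median 0.053). CPM are TMM-scaled, and RPKM are CPM per kilobase of the deposited length. Replicates differed beyond counting noise (chi-square per degree of freedom 2.73 to 6.61 over genes with at least 20 counts). Steps were tested on simulated data.

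The members and gene lists were chosen with earlier results of these data known. Named were all members and, per list, the 3 called genes of smallest p whose higher group averaged 1 CPM or more, the most abundant gene, and the 3 genes most like the member that rose most; no member fell. Other names are stated as such. A gene of the target list is not reported here by name. Alternatives were 3 other scalings, no filter or a 1 CPM filter, DESeq2 1.42.0, limma-voom (limma 3.58.1), a replicate block, a false discovery rate of 0.05, and fits without each library or without mitochondrial genes and the top 20 genes by abundance.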

Additional observations from a re-analysis of the deposited data

How the results depend on the processing

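The 10 KLF genes were higher in OA and past the threshold under all 17 alternatives (170 of 170 values). Over all genes, the number called higher ran from 5961 of 13658 tested (1 CPM filter) to 8223 of 14785 (library totals). The false discovery rate of 0.05 was applied to the main fit, so it could lose no call. Upper quartile scaling and library totals raised the value of every member. With each library left out in turn, log2 fold changes ran from 1.76 to 1.79 for KLF11, 1.04 to 1.06 for KLF3, 0.85 to 0.99 for KLF2 and 0.19 to 0.26 for KLF10, which was lowest without Vehicle replicate 1, where the largest member adjusted p (edgeR) was 0.00012. The replicate numbers do not pair the samples (correlations of same-numbered deviations 0.081, 0.013 and -0.026), and with the replicate block 10 members were higher and 0 lower, with 6294 genes higher and 5983 lower in all. Share differences, OA minus vehicle in percentage points, moved when counts were not divided by gene length, to 2.38 for KLF3, -1.50 for KLF7, 0.88 for KLF9, -2.09 for KLF10, 2.41 for KLF11 and -0.44 for KLF13, since length then weights each gene. With KLF13 at its chromosome 15 length, an alternative chosen after seeing the data, they were 2.42 for KLF11 and -0.29 for KLF13. Directions turned for SP3 (0.16 with upper quartile scaling and 0.22 with library totals), KRT8 (0.00025 and 0.058), WWP1 (0.056 and 0.11), TGFBR1 (0.18 and 0.24), EP300 (0.22 and 0.27, 0.013 with the 1 CPM filter, and from -0.047 to 1.05e-05 with each library left out), VHL (0.20 and 0.26, 0.0012 with the 1 CPM filter, and from -0.057 to 0.00034 with each library left out) and DCN (0.21 and 0.27, 0.0067 with the 1 CPM filter, and from -0.098 to 0.13 with each library left out, 0.13 without Vehicle replicate 1). Ligase genes called were 5 higher and 2 lower, 8 and 1 with library totals, and 1 lower with upper quartile scaling. Hepatocyte markers called higher were 8, but 1 with the 1 CPM filter and 3 with DESeq2 or limma-voom. Basal markers called higher were 2, but 1 in several fits, and luminal markers 1, but 2 with library totals or upper quartile scaling, without Vehicle replicate 1 and at a false discovery rate of 0.05. KLF2, with 52 to 150 counts per library, is the member for which depth limits precision most.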

Other observations

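Of the markers of luminal breast epithelium 5 were tested, with 3 lower in OA and 1 higher, beside 41.1% lower and 43.3% higher over all genes tested. With upper quartile scaling or library totals the counts were 2 lower and 2 higher. KRT18 fell (-0.45), to 264 CPM in OA, against 362 CPM in vehicle, and ESR1, the estrogen receptor gene, was low in both groups, at 0.655 CPM in OA and 1.66 CPM in vehicle (-1.35). KRT8 had 239 CPM in OA and 279 CPM in vehicle (-0.23), a direction that turned with upper quartile scaling and library totals. FOXA1 rose (0.54, SE 0.12), with 4.96 CPM in OA and 3.40 CPM in vehicle. GATA3, at 11.1 CPM in OA and 9.73 CPM in vehicle, was not called (0.18, edgeR adjusted p = 0.027). FOXA1 and GATA3 were named with their values in view.

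Some genes used as markers of other cell types rose. COL1A1, a fibroblast collagen gene, had 55.9 CPM in OA and 20.5 CPM in vehicle (1.44, SE 0.047), and PDGFRB had 1.69 CPM in OA and 0.498 CPM in vehicle (1.77), while DCN had 45.6 CPM in OA and 45.9 CPM in vehicle and was not called. Of 5 leukocyte markers 2 were analysed. CD68, a lysosomal protein gene that many cell types express, had 56.0 CPM in OA and 21.0 CPM in vehicle (1.41), and CD14 had 5.57 CPM in OA and 2.69 CPM in vehicle (1.04).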
